A study of Homo sapiens with 9 samples.

Results

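The genes that build, cross-link, contract and turn over actin filaments were followed in a human breast cancer line in which ASAH1, the gene of acid ceramidase, was knocked down. The set was fixed by name, with earlier results of these data known: 49 gene symbols, of 26485 genes counted, that had a value both in the table of ASAH1 shRNA #1 and in the table of ASAH1 shRNA #2. It holds 3 actins, 8 myosins and tropomyosins, 6 genes of the calponin family and caldesmon, 7 bundlers and crosslinkers, 3 adhesion linkers, 5 monomer-binding and turnover factors, 8 subunits of the ARP2/3 complex, the 2 capping protein subunits and 7 small GTPase, formin and MRTF regulators. MRTFA and MRTFB are listed under their older symbols MKL1 and MKL2. All cells were MDA-MB-231, an established triple-negative breast cancer line, grown in DMEM with serum and stably expressing an shRNA: a control nonspecific (NS) shRNA, ASAH1 shRNA #1 or ASAH1 shRNA #2, with 3 libraries each. Strand-specific libraries were sequenced. The extraction protocol names oligo-dT beads for selecting mRNA, whereas the series description names depletion of ribosomal RNA, and which was used is not settled here. The same 3 NS shRNA libraries served as controls for both ASAH1 hairpins. The study calls the 3 libraries of a group biological replicates, but the sources used here do not say whether the cells were infected separately, so p-values measure the spread between these libraries.

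Actin monomers assemble into filaments that are nucleated by the ARP2/3 complex (branched networks) or by formins (straight filaments), capped, bundled, and pulled by non-muscle myosin II. Small GTPases such as RhoA switch formins and myosin on, and monomeric actin holds the coactivators MRTFA and MRTFB away from the transcription factor SRF, whose targets include many actin, tropomyosin and calponin genes through a sequence called the CArG box. In migrating tumour cells such as MDA-MB-231 these proteins form lamellipodia, filopodia and stress fibres.

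The recovered reads on genes ran from 23806003 to 49659106 per library over the 9 libraries. Values are normalized counts, that is, reads divided by a size factor that the authors estimated for each table, so the NS shRNA libraries carry slightly different values beside each hairpin. Fold changes are log2 differences on log2(normalized count + 1) with a standard error (SE), and a gene was called changed at a Benjamini-Hochberg adjusted p below 0.05 from limma. The targeted gene fell with both hairpins: ASAH1 had 4436, 4512 and 4518 in the NS shRNA libraries and 1268, 1365 and 1348 with shRNA #1 (log2 fold change -1.76, SE 0.050, limma adjusted p = 9.49e-09), and it fell further with shRNA #2 (log2 fold change -2.63, SE 0.057, limma adjusted p = 5.42e-10). Of the markers of the line, vimentin (VIM) held 41873 to 72608 reads per library, and of the luminal markers ESR1 and PGR held 0 to 2 while GATA3 held 401 to 1195. Endothelial markers were low, with 0 to 3 reads of CDH5 and 39 to 102 of PECAM1.

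More of the actin cytoskeleton genes fell than rose with each hairpin, and the cytoplasmic actins, which are among the most abundant transcripts of these cells, were among those that fell. With shRNA #1, 26 of the 49 genes were downregulated and 13 upregulated, against 33.3% of all 14341 tested genes called lower and 32.8% called higher (66.1% in either direction). CNN1 passed the minimum mean of 10 only through the shRNA #1 libraries, so its call is fixed by that filter, and 12 were upregulated without it. The median log2 fold change over the 49 genes was -0.16, against 0.0013 over all genes tested. With shRNA #2, 48 of the 49 passed the minimum mean of 10 (CNN1 did not), 21 of them were downregulated and 11 upregulated, beside 33.4% of all 14250 tested genes called lower and 33.5% called higher (66.9% in either direction). Their median was -0.12, against 0.013 over all genes tested. When every library was rescaled to the same total of reads on genes, the split with shRNA #2 became 28 lower and 9 higher, and the median of all genes moved to -0.12. Downregulated members made up 53.1% of the tested members with shRNA #1 and 43.8% with shRNA #2. Among the 68 tested genes of the other pathway lists described further on, 30.9% were downregulated with each hairpin. In bulk RNA, fewer cells of a type and less RNA per cell cannot be told apart.

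Changes of at least 1.5-fold were fewer. With shRNA #1, 10 members were called and at least 1.5-fold lower and 7 at least 1.5-fold higher (CNN1 among them), where 14.0% and 15.0% of all tested genes were. With shRNA #2 the counts were 10 lower and 4 higher, beside 17.6% and 14.8% of all genes tested. The libraries of the 2 groups did not overlap for 40 of 49 members with shRNA #1 (69.2% of all genes tested) and for 35 of 48 with shRNA #2 (70.0%).

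Read side by side, the hairpin comparisons share their NS shRNA libraries and are not independent. Downregulated in both were 15 members, ACTB, ACTG1, MYL6, MYL9, TPM1, CNN2, CNN3, CALD1, ACTN4, FSCN1, VCL, PFN1, TMSB4X, ARPC1B and MKL2, where 20.5% of the 14074 genes tested in both comparisons and between the hairpins were. The 6 upregulated in both were FLNC, ZYX, ARPC3, ACTR2, RND3 and DIAPH1, beside 20.0% of all genes, so that 21 were called in the same direction (40.5% of all genes). TAGLN, LCP1, PFN2 and RHOB were higher with shRNA #1 and lower with shRNA #2, and MYH10 and PLS3 went the other way, so 6 members were called in opposite directions, beside 7.97% of all genes. Neither hairpin gave a call for TPM3, TPM4, TAGLN2, TLN1 or CFL1.

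**Figure D1:**
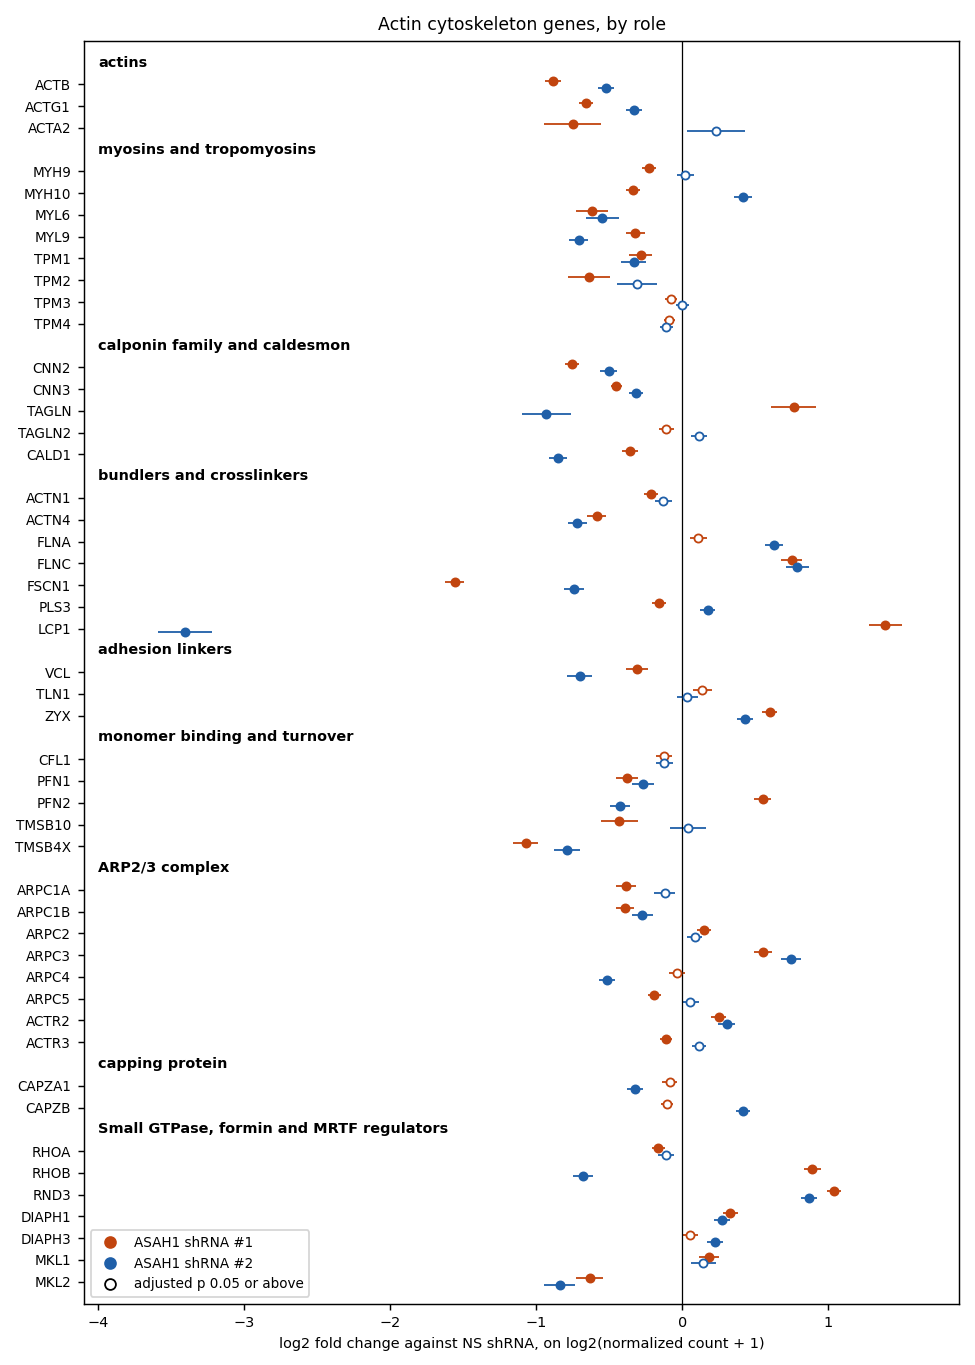
Log2 fold change against NS shRNA (x axis, on log2(normalized count + 1)) of 48 genes grouped by role, for ASAH1 shRNA #1 (orange) and ASAH1 shRNA #2 (blue); bars are SE of the fit over 3 against 3 libraries and open symbols did not pass the test. The actins lie to the left of 0 except ACTA2 with shRNA #2, RND3 and FLNC lie to the right with both hairpins, and LCP1 lies at 1.39 with shRNA #1 and -3.41 with shRNA #2. CNN1 is left out because the NS shRNA libraries hold 1 read of it.

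Both cytoplasmic actins fell with both hairpins, and by more with shRNA #1. ACTB, beta-actin, lies on chromosome 7 from 5526409 to 5563902 (hg38, minus strand, 6 exons in the canonical transcript) and had the highest mean normalized count of all genes in the NS shRNA libraries. Its normalized count was 185558, 177261 and 168009 in the NS shRNA libraries (176943 ± 8779, SD, n = 3) and 94803, 91223 and 100995 with shRNA #1 (95673 ± 4944, SD, n = 3). All 3 knockdown libraries lay far below all 3 controls, at 0.541 times the control mean, with a log2 fold change of -0.89 (SE 0.055, limma adjusted p = 8.83e-07). In the shRNA #2 table ACTB went from 200225, 192418 and 181147 to 133619, 129911 and 135862, again without overlap, a log2 fold change of -0.52 (SE 0.054, limma adjusted p = 1.10e-05). Actin served as the internal control of the study's qRT-PCR measurements.

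ACTG1, gamma-actin, lies on chromosome 17 from 81509413 to 81523847 and ranked 5 by mean normalized count in the controls. The NS shRNA libraries gave 114350.1, 111704 and 107416 and the shRNA #1 libraries 69997, 68145 and 73149.9, a log2 fold change of -0.66 (SE 0.046, limma adjusted p = 1.89e-06). With shRNA #2 it went from 123389, 121255 and 115815 to 95195, 91005 and 100624 (log2 fold change -0.33, SE 0.055, limma adjusted p = 0.000336). No knockdown library reached the lowest control. Compared directly, the hairpins differed for both genes: shRNA #2 was above shRNA #1 by 0.36 (SE 0.048, edgeR adjusted p = 5.53e-05) for ACTB and by 0.32 (SE 0.046, edgeR adjusted p = 8.50e-05) for ACTG1 on the log2 scale. Few of the 76-base windows of these transcripts, the read length, occur in transcripts of other genes (2.71% for ACTB and 0 for ACTG1).

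ACTA2, smooth muscle actin, was far lower than the cytoplasmic actins (1332 ± 345 normalized counts per kb of transcript with NS shRNA, against 57924 ± 1824 for ACTG1) and more variable. Its values were 2129.8, 1997 and 1265 in the NS shRNA libraries and 961, 897 and 1313 with shRNA #1, where the groups overlapped, with NS replicate 3 the lowest control and shRNA #1 replicate 3 the highest knockdown library. The log2 fold change was -0.75 (SE 0.20, limma adjusted p = 0.00748). With shRNA #2 the values were 1748, 2284 and 2771 against 2298, 2168 and 1364, and no change was called (0.23, SE 0.20, limma adjusted p = 0.317). The antisense gene ACTA2-AS1 shares 26.6% of the windows of ACTA2, although the counting used strand.

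Reads on the 49 genes made up 3.08%, 3.02% and 2.97% of all reads on genes in the NS shRNA libraries, 2.43%, 2.44% and 2.49% with shRNA #1 and 2.55%, 2.50% and 2.55% with shRNA #2. Every knockdown library was below every control library. ACTB and ACTG1 alone took 0.925%, 0.894% and 0.856% in the controls, 0.518%, 0.499% and 0.544% with shRNA #1 and 0.595%, 0.581% and 0.614% with shRNA #2. The other 47 genes went from 2.16%, 2.13% and 2.12% to 1.91%, 1.94% and 1.94% with shRNA #1 and to 1.96%, 1.92% and 1.93% with shRNA #2, so they too took a smaller share in all 6 knockdown libraries. Rescaled to the same total of reads on genes, the median log2 fold change of all genes was 0.019 with shRNA #1 and -0.12 with shRNA #2. With shRNA #2 a smaller share was therefore not particular to these 47 genes.

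**Figure D2:**
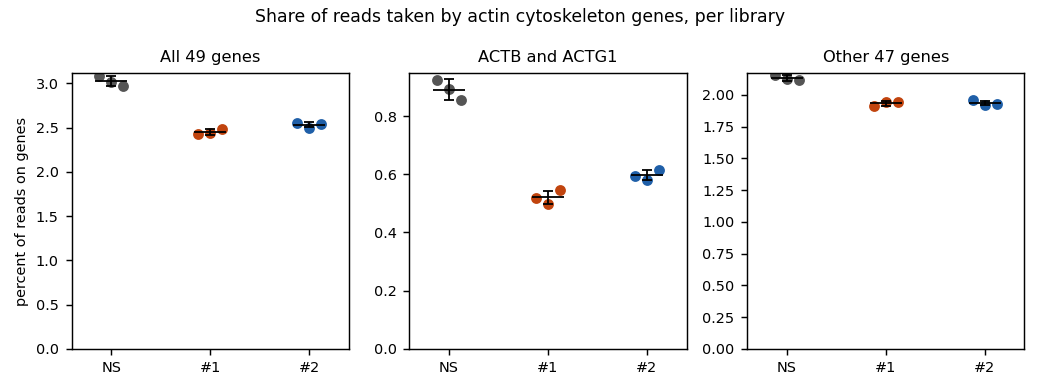
Percent of reads on genes (y axis) taken by all 49 genes, by ACTB and ACTG1, and by the other 47 genes, in each library of NS shRNA (grey), ASAH1 shRNA #1 (orange) and ASAH1 shRNA #2 (blue); points are libraries and bars are mean and SD (n = 3). In all 3 panels the knockdown libraries lie below the controls, with the gap widest, relative to the level, for ACTB and ACTG1. Rescaled to the same total of reads, the median log2 fold change of all genes was also below 0 with shRNA #2 (-0.12).

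Of the 8 myosins and tropomyosins, 6 were downregulated and none upregulated with shRNA #1, and 3 were downregulated and 1 upregulated with shRNA #2. The myosin II light chains fell with both hairpins. MYL6, the essential light chain, had 25339.7, 24593 and 19537 in the NS shRNA libraries, 13523, 14630.3 and 17095 with shRNA #1 (log2 fold change -0.62, SE 0.11, limma adjusted p = 0.000737), and with shRNA #2 16356, 15250.4 and 19804 against 27343, 26696 and 21065 (log2 fold change -0.55, SE 0.11, limma adjusted p = 0.00140). MYL9, the regulatory light chain whose phosphorylation drives contraction, had 8725, 8295 and 7444 in the controls and 6333, 6301 and 6934 with shRNA #1 (log2 fold change -0.32, SE 0.066, limma adjusted p = 0.00197). With shRNA #2 it fell from 9415, 9004 and 8026 to 5168, 5359 and 5618, a log2 fold change of -0.71 (SE 0.067, limma adjusted p = 5.98e-06), and the difference between the hairpins, shRNA #2 minus shRNA #1, was -0.40 (SE 0.067, edgeR adjusted p = 0.000294). Neither light chain overlapped with the controls in any comparison.

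The heavy chains of non-muscle myosin II gave different calls. MYH9, the heavy chain of myosin IIA and the 19th most abundant transcript by mean normalized count, fell slightly with shRNA #1 (log2 fold change -0.23, SE 0.049, limma adjusted p = 0.00260) and gave no call with shRNA #2 (0.022, SE 0.056, limma adjusted p = 0.747). MYH10, the heavy chain of myosin IIB, had 3113, 3205 and 3287 in the NS shRNA libraries and 2523, 2627 and 2456 with shRNA #1, a log2 fold change of -0.34 (SE 0.049, limma adjusted p = 0.000237). With shRNA #2 it rose from 3359, 3479 and 3544 to 4951, 4632 and 4302, a log2 fold change of 0.42 (SE 0.063, limma adjusted p = 0.000172). The groups did not overlap in either comparison, and the hairpins differed by 0.75 (SE 0.058, edgeR adjusted p = 6.50e-07).

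Among the tropomyosins, which wrap along filaments and stabilize them, TPM1 fell with both hairpins and TPM2 with shRNA #1. TPM1 had 7357, 6773 and 5989 in the controls and 5202, 5366 and 5944 with shRNA #1 (log2 fold change -0.28, SE 0.079, limma adjusted p = 0.0104), and 5166, 5793 and 6298 against 7939, 7352 and 6458 with shRNA #2 (log2 fold change -0.33, SE 0.088, limma adjusted p = 0.00666). TPM2 had a log2 fold change of -0.64 (SE 0.14, limma adjusted p = 0.00332) with shRNA #1 and of -0.31 (SE 0.14, limma adjusted p = 0.0715) with shRNA #2, where NS replicate 3 lay within the range of the knockdown libraries. Without NS replicate 3 the value with shRNA #2 was -0.46 and passed the test (limma adjusted p = 0.00213), as it did without shRNA #2 replicate 3 (-0.44, limma adjusted p = 0.00701). It also passed after upper quartile (-0.40, limma adjusted p = 0.029) and same-total rescaling (-0.44, limma adjusted p = 0.0131) and by DESeq2 (-0.31, DESeq2 adjusted p = 0.0427). TPM3 and TPM4 did not pass the test, with -0.074 and -0.088 for shRNA #1 and 0.00092 and -0.11 for shRNA #2.

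In the calponin family and caldesmon, proteins that bind along actin filaments and temper myosin, 3 of 6 genes fell and 2 (TAGLN and CNN1, the latter through the filter) rose with shRNA #1, and 4 of the 5 tested fell with shRNA #2. CNN2 (calponin 2) had 9197, 8752 and 9605 in the NS shRNA libraries and 5625, 5309 and 5371 with shRNA #1 (log2 fold change -0.76, SE 0.050, limma adjusted p = 1.33e-06). With shRNA #2 CNN2 went from 9924, 9500.3 and 10356 to 7106, 7318 and 6597 (log2 fold change -0.50, SE 0.058, limma adjusted p = 2.61e-05). CNN3 (calponin 3) went from 13582, 13843 and 13657 to 10168, 9959 and 9918 with shRNA #1 (log2 fold change -0.45, SE 0.039, limma adjusted p = 7.56e-06). CNN3 went from 14656, 15027 and 14725 to 11691, 12241 and 11751 with shRNA #2 (log2 fold change -0.32, SE 0.048, limma adjusted p = 0.000174). CALD1, caldesmon, was lower with shRNA #2 than with shRNA #1: it went from 11258, 11338 and 12522 to 9547, 9153 and 8737 with shRNA #1 (log2 fold change -0.36, SE 0.056, limma adjusted p = 0.000370). CALD1 went from 12148, 12307 and 13501 to 6863, 7434 and 6727 with shRNA #2 (log2 fold change -0.85, SE 0.061, limma adjusted p = 9.38e-07). The difference between hairpins was -0.50 (SE 0.057, edgeR adjusted p = 1.38e-05). None of these groups overlapped.

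TAGLN, transgelin or SM22-alpha, went in opposite directions. It had 266, 208 and 172 in the NS shRNA libraries and 332, 350.2 and 403 with shRNA #1 (log2 fold change 0.76, SE 0.15, limma adjusted p = 0.00155), and it went from 287, 226 and 185 to 107, 116 and 139 with shRNA #2 (log2 fold change -0.93, SE 0.17, limma adjusted p = 0.000618), with a difference between the hairpins of -1.70 (SE 0.16, edgeR adjusted p = 3.27e-06). All 3 shRNA #1 libraries were above, and all 3 shRNA #2 libraries below, every control. TAGLN is uncertain because 82.3% of its transcript windows occur in other annotated transcripts, on either strand, PCSK7 among them, although the counting used strand. TAGLN2, with no call, had log2 fold changes of -0.11 and 0.12.

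CNN1, calponin 1, is typical of smooth muscle and was close to absent in the controls. It passed the filter only through the shRNA #1 libraries, so it had to differ there, and with shRNA #2 it was not tested. Its reads are given as a description. The NS shRNA libraries held 0, 1 and 0 reads, those with shRNA #1 24, 39 and 25, and those with shRNA #2 11, 9 and 24. Corrected for depth, the ratio to the controls was 88.7 with shRNA #1 (95% interval 15.5 to 3543) and 38.3 with shRNA #2 (6.53 to 1549), intervals that cover counting error only. Of the smooth muscle markers, MYH11 held 2 to 21 reads per library, DES 15 to 84 and SMTN 1417 to 2478, and none was at 0. Summed as CPM (reads scaled to a fixed library size), these 3 markers came to 48.1 to 49.6 with NS shRNA, 60.4 to 63.2 with shRNA #1 and 44.1 to 46.6 with shRNA #2. Most of this sum is SMTN, and DES did not follow it. DES held 20 to 44 reads per library with NS shRNA, 15 to 31 with shRNA #1 and 35 to 84 with shRNA #2. The part of these markers in the values of CNN1, TAGLN and ACTA2 was not tested.

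**Figure D3:**
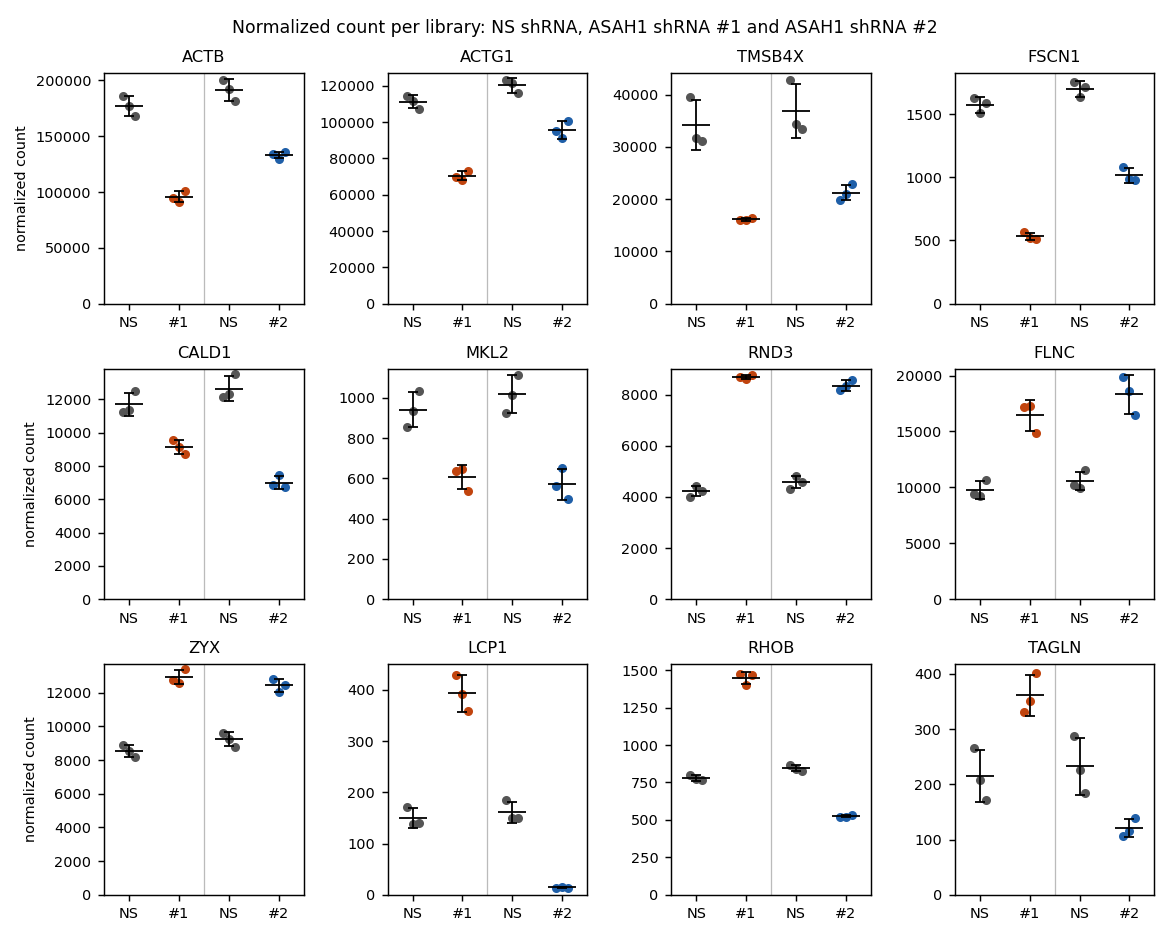
Normalized count (y axis, from 0) of 12 genes in each library; left of the grey line NS shRNA and ASAH1 shRNA #1 in their table, right of it NS shRNA and ASAH1 shRNA #2 in theirs. Points are libraries and bars are mean and SD (n = 3). ACTB, ACTG1, TMSB4X, FSCN1, CALD1 and MKL2 are lower with both hairpins, RND3, FLNC and ZYX higher with both, and LCP1, RHOB and TAGLN higher with shRNA #1 and lower with shRNA #2.

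The bundlers and crosslinkers split. With shRNA #1, 4 of 7 fell and 2 rose, and with shRNA #2, 3 fell and 3 rose. FSCN1, fascin, which bundles the filaments of filopodia, showed the largest fall of the tested members with shRNA #1: the NS shRNA libraries had 1624, 1504 and 1587 and the shRNA #1 libraries 566, 519.7 and 514, 0.339 times the control mean. Its log2 fold change was -1.56 (SE 0.064, limma adjusted p = 8.15e-08), and with shRNA #2, where FSCN1 went from 1753, 1633 and 1711 to 1085, 989 and 976, it was -0.74 (SE 0.068, limma adjusted p = 4.79e-06). The lowest control stood well above the highest knockdown library in both tables. FSCN1 lies on chromosome 7 from 5592816 to 5606655, with 5 exons in its canonical transcript.

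ACTN4, the non-muscle alpha-actinin that crosslinks stress fibres, fell from 32897, 31374 and 36305 to 23281, 22616 and 21016 with shRNA #1 (log2 fold change -0.59, SE 0.062, limma adjusted p = 2.80e-05). ACTN4 went from 35497, 34057 and 39144 to 22544, 22908 and 20579 with shRNA #2 (log2 fold change -0.72, SE 0.065, limma adjusted p = 4.53e-06). ACTN1, its paralog, had log2 fold changes of -0.21 (SE 0.048, limma adjusted p = 0.00355) with shRNA #1 and -0.13 (SE 0.059, limma adjusted p = 0.0750) with shRNA #2, of which the first passed the test. PLS3, plastin 3, gave small and opposite calls, -0.16 (SE 0.046, limma adjusted p = 0.0117) from 14063, 15335 and 14851 to 12988, 13323 and 13292 and 0.18 (SE 0.053, limma adjusted p = 0.0133) from 15174, 16646 and 16012 to 18239, 17423 and 18329.7. The call with shRNA #1 was lost without NS replicate 2 (log2 fold change -0.13, limma adjusted p = 0.0545), and the call with shRNA #2 was lost without shRNA #2 replicate 1 (0.17, limma adjusted p = 0.0546) and when the libraries were rescaled to the same total (0.041, limma adjusted p = 0.509).

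Of the filamins, the large crosslinkers that hold networks together, FLNC rose with both hairpins and FLNA with shRNA #2. FLNC had 9448, 9199 and 10703 in the NS shRNA libraries and 17202, 17311 and 14849 with shRNA #1 (log2 fold change 0.75, SE 0.075, limma adjusted p = 1.89e-05), and 19889, 18597 and 16436 against 10195, 9986 and 11540.4 with shRNA #2 (log2 fold change 0.79, SE 0.079, limma adjusted p = 8.71e-06). Its lowest knockdown library was above the highest control with each hairpin. FLNA, described after its values were seen, ranked 9 among all genes in the controls and rose with shRNA #2, from 80854, 82003 and 90714 to 138558, 130558 and 122899 (log2 fold change 0.63, SE 0.064, limma adjusted p = 9.77e-06). With shRNA #1 its values of 85670.1, 87609.7 and 79643 overlapped with the controls at 74931, 75544 and 84135, and it was not called (0.11, SE 0.058, limma adjusted p = 0.127). Without NS replicate 3 the log2 fold change was 0.16 and passed (limma adjusted p = 0.0243).

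LCP1, L-plastin, a bundler typical of leukocytes and also found in tumour cells, differed most between the hairpins and is likewise described after its values were seen. It lies on chromosome 13 from 46125920 to 46211871. The NS shRNA libraries had 172, 137 and 139 and the shRNA #1 libraries 429, 392 and 358 (log2 fold change 1.39, SE 0.12, limma adjusted p = 5.50e-06). In the shRNA #2 table it went from 185, 149 and 150.3 to 14.0, 15.5 and 13.2, 0.0882 times the control mean (log2 fold change -3.41, SE 0.18, limma adjusted p = 1.45e-07). Every shRNA #1 library was above and every shRNA #2 library below the controls of its table, and the difference between the hairpins was -4.90 (SE 0.16, edgeR adjusted p = 8.76e-10). Of the immune markers, PTPRC held 1 to 8 reads per library and CD14 155 to 1470. Their summed CPM, nearly all of it CD14, was 27.1 to 33.1 with NS shRNA, 6.55 to 7.44 with shRNA #1 and 27.0 to 31.2 with shRNA #2, lowest in the group in which LCP1 was highest. The part of these markers in the values of LCP1 was not tested.

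Of the 3 adhesion linkers, which connect integrins to filaments, 1 fell, 1 rose and 1 was not called with each hairpin. VCL, vinculin, went from 13239, 13594 and 15673 to 11977, 11949 and 10402 with shRNA #1 (log2 fold change -0.31, SE 0.076, limma adjusted p = 0.00566). VCL went from 14286, 14757 and 16899 to 9655, 10286 and 8351 with shRNA #2 (log2 fold change -0.70, SE 0.085, limma adjusted p = 3.67e-05). The difference between the hairpins was -0.40 (SE 0.086, edgeR adjusted p = 0.00172). ZYX, zyxin, which gathers on stretched stress fibres, rose from 8921, 8546 and 8163 to 12774, 12602 and 13432 with shRNA #1 (log2 fold change 0.60, SE 0.049, limma adjusted p = 5.11e-06). ZYX went from 9626, 9277 and 8801 to 12835, 12067 and 12484 with shRNA #2 (log2 fold change 0.43, SE 0.054, limma adjusted p = 4.27e-05). Neither gene's groups overlapped. TLN1, talin 1, had log2 fold changes of 0.14 and 0.037 that did not pass, although without NS replicate 3 the value with shRNA #1 was 0.20 and passed (limma adjusted p = 0.0125).

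Of the 5 monomer-binding and turnover factors, 3 fell and 1 rose with shRNA #1, and 3 fell and none rose with shRNA #2. TMSB4X, thymosin beta-4, the main store of unpolymerized actin, had 39597, 31646 and 31032 in the NS shRNA libraries and 15938, 15943 and 16424 with shRNA #1, a log2 fold change of -1.07 (SE 0.083, limma adjusted p = 3.62e-06). With shRNA #2 it went from 42727, 34352 and 33459 to 19867, 21057 and 22851 (log2 fold change -0.79, SE 0.090, limma adjusted p = 2.39e-05). The shRNA #1 libraries were close to each other, and in both tables every knockdown library lay below every control. Of the windows of TMSB4X, 13.5% occur in transcripts of other genes.

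PFN1, profilin 1, which hands ATP-actin to formins, fell from 35809.7, 33146 and 29248 to 24022, 24501 and 26954 with shRNA #1 (log2 fold change -0.38, SE 0.075, limma adjusted p = 0.00161). PFN1 went from 38640.2, 35980.5 and 31535 to 29568, 27344 and 30993 with shRNA #2 (log2 fold change -0.27, SE 0.077, limma adjusted p = 0.00997). PFN2, the profilin most abundant in neurons, rose with shRNA #1, from 1002, 1002 and 1048 to 1566, 1455 and 1454 (log2 fold change 0.55, SE 0.057, limma adjusted p = 2.34e-05), and fell with shRNA #2, from 1081, 1088 and 1129.9 to 797, 845 and 813 (log2 fold change -0.43, SE 0.065, limma adjusted p = 0.000195), a difference between hairpins of -0.98 (SE 0.055, edgeR adjusted p = 5.11e-08). For both profilins the groups stood apart. TMSB10, thymosin beta-10, was called lower with shRNA #1 (-0.43, SE 0.13, limma adjusted p = 0.0133) with overlapping libraries, and the call was lost without NS replicate 1 (limma adjusted p = 0.0584) or NS replicate 2 (limma adjusted p = 0.0623). CFL1, cofilin 1, the main filament-severing protein, was not called, with log2 fold changes of -0.12 and -0.12.

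The ARP2/3 complex moved without a common direction, and its share of reads was nearly level. With shRNA #1, 4 of its 8 subunits fell, 3 rose and 1 was not called, and with shRNA #2, 2 fell, 2 rose and 4 were not called. Together the 8 subunits took 0.208%, 0.209% and 0.200% of reads on genes with NS shRNA, 0.201%, 0.204% and 0.209% with shRNA #1 and 0.195%, 0.196% and 0.203% with shRNA #2, ranges that overlap. ARPC3 rose from 3977, 4127 and 3656 to 5569, 5545 and 6126 with shRNA #1 (log2 fold change 0.55, SE 0.061, limma adjusted p = 3.71e-05). ARPC3 went from 4291, 4479.6 and 3942 to 6807, 6820.1 and 7688 with shRNA #2 (log2 fold change 0.75, SE 0.069, limma adjusted p = 5.05e-06). ACTR2, which encodes the actin-related protein ARP2, also rose, from 7954, 8437 and 8934 to 9967, 10396 and 9748 with shRNA #1 (0.25, SE 0.053, limma adjusted p = 0.00231). ACTR2 went from 8583, 9158 and 9632 to 11517, 11486 and 10809 with shRNA #2 (0.31, SE 0.058, limma adjusted p = 0.000831).

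ARPC1B was the subunit that fell with both hairpins, from 8602, 8310.3 and 7409 to 6064, 6007 and 6434 with shRNA #1 (log2 fold change -0.39, SE 0.062, limma adjusted p = 0.000364). ARPC1B went from 9282, 9021 and 7989 to 7114, 6805 and 7829.6 with shRNA #2 (log2 fold change -0.27, SE 0.072, limma adjusted p = 0.00666). ARPC1B and its paralog ARPC1A share 84.7% and 75.3% of their windows with other annotated transcripts, mostly those of a readthrough gene that spans both, so reads counted to either depend on how that locus is annotated. ARPC4 was called lower with shRNA #2 (-0.51, SE 0.058, limma adjusted p = 2.01e-05) and was not called with shRNA #1 (-0.035, SE 0.056, limma adjusted p = 0.603), and the difference between the hairpins was -0.49 (SE 0.057, edgeR adjusted p = 1.76e-05). The remaining 4 subunits, ARPC1A, ARPC2, ARPC5 and ACTR3, had log2 fold changes between -0.38 and 0.15 with shRNA #1 and none was called with shRNA #2. The calls of ARPC2 and ACTR3 with shRNA #1 were each lost without NS replicate 2 or 3 and without shRNA #1 replicate 2 or 3, that of ACTR3 also without shRNA #1 replicate 1, with limma adjusted p of 0.0634 for ARPC2 and 0.172 for ACTR3 without NS replicate 2. Of the capping protein subunits, CAPZA1 fell (-0.32, SE 0.056, limma adjusted p = 0.000468) and CAPZB rose (0.42, SE 0.049, limma adjusted p = 2.90e-05) with shRNA #2, and neither was called with shRNA #1 (-0.086 and -0.10).

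Of the 7 regulators, 4 rose and 2 fell with shRNA #1, and 3 rose and 2 fell with shRNA #2. RND3, an atypical small GTPase that opposes RhoA signalling, lies on chromosome 2 from 150468195 to 150539011 and had 4012, 4435 and 4248 in the NS shRNA libraries against 8697, 8608 and 8771 with shRNA #1, 2.05 times the control mean (log2 fold change 1.04, SE 0.049, limma adjusted p = 1.73e-07). With shRNA #2 it rose from 4329, 4814 and 4580.1 to 8174, 8323 and 8570.3 (log2 fold change 0.87, SE 0.056, limma adjusted p = 4.36e-07). The spread within each group was small beside the change. DIAPH1, the formin driven by RhoA, rose from 8961, 9881 and 9815 to 11768, 12171 and 12085 with shRNA #1 (0.33, SE 0.050, limma adjusted p = 0.000270). DIAPH1 went from 9669, 10725 and 10583 to 12665, 12466 and 12270.2 with shRNA #2 (0.27, SE 0.055, limma adjusted p = 0.00122). DIAPH3 was called higher with shRNA #2 (0.22, SE 0.054, limma adjusted p = 0.00396), a call that was lost when libraries were rescaled to the same total (0.089, limma adjusted p = 0.179).

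RHOB, a short-lived small GTPase found on endosomes, went in opposite directions. It had 803, 772 and 767 in the NS shRNA libraries and 1478, 1404 and 1470.1 with shRNA #1 (log2 fold change 0.89, SE 0.056, limma adjusted p = 9.63e-07), and it fell from 866, 838 and 827 to 521, 523 and 536 with shRNA #2 (log2 fold change -0.68, SE 0.069, limma adjusted p = 1.01e-05). All shRNA #1 libraries were above and all shRNA #2 libraries below their controls, and the hairpins differed by -1.58 (SE 0.053, edgeR adjusted p = 1.18e-09). RHOA, far more abundant per kb of transcript, was called slightly lower with shRNA #1 (-0.16, SE 0.043, limma adjusted p = 0.00782) and had -0.11 with shRNA #2, without a call.

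MKL2, the coactivator MRTFB, fell from 857, 932 and 1032 to 635, 647 and 537 with shRNA #1 (log2 fold change -0.63, SE 0.094, limma adjusted p = 0.000256). MKL2 went from 925, 1012 and 1113 to 562, 649 and 498 with shRNA #2 (log2 fold change -0.84, SE 0.11, limma adjusted p = 4.93e-05). MKL1, the coactivator MRTFA, had small positive values, 0.19 (SE 0.067, limma adjusted p = 0.0341) with shRNA #1 and 0.14 (SE 0.086, limma adjusted p = 0.161) with shRNA #2. Its call with shRNA #1 was lost when either NS replicate 1 (limma adjusted p = 0.0677) or NS replicate 2 (limma adjusted p = 0.132), or any shRNA #1 library, was left out.

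Because SRF and its MRTF coactivators act through the CArG box, the RefSeq promoter windows (GRCh38.p14, 250 bases before to 50 after the start of each gene) were searched for it. Of the 49 genes, 43 had a window, and 6 of these (14.0%) held a CArG box on either strand, as did 9 of 64 of the other pathway genes described further on (14.1%), against 1.55% of the 10441 genes tested with shRNA #1 that have a window. Of these 9, SRF, ACTG2, FHL1, FHL2 and TGFB1I1 come from a list of SRF and its targets. The share among the other pathway genes is therefore set in part by how they were chosen. So is that of the members, which were chosen by name and include actin, tropomyosin and calponin genes. The boxes of the 6 members are shown with 20 bases on each side, in the direction of transcription, with the box in capitals. Only boxes whose flanking bases all lay before the start are shown, so all 6 lie upstream of it.
ACTG1 (chr17:81512864-81512913, minus strand, 94 bases upstream): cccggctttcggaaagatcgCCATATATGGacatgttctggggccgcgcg
ACTN1 (chr14:68977708-68977757, minus strand, 171 bases upstream): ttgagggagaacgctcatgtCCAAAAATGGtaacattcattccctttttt
CNN2 (chr19:1026499-1026548, plus strand, 89 bases upstream): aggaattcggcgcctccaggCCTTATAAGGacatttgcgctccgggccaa
FLNA (chrX:154374699-154374748, minus strand, 94 bases upstream): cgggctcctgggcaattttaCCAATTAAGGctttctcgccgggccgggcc
RND3 (chr2:150487738-150487787, minus strand, 72 bases upstream): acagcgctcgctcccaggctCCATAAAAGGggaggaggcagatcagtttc
TPM4 (chr19:16067345-16067394, plus strand, 173 bases upstream): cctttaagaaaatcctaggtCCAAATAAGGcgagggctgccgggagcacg
The 6 genes did not move together. ACTG1 and CNN2 fell with both hairpins, RND3 rose with both, ACTN1 fell with shRNA #1, FLNA rose with shRNA #2 and TPM4 was not called. A match is a description of the letters and not of SRF binding. ACTB, MYL9, TAGLN, FSCN1, PFN2 and ARPC1B had no window in the table used.

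Per kilobase of the canonical GENCODE transcript, levels in the NS shRNA libraries ran from ACTB to CNN1. ACTB, at 97650.5 ± 4845 normalized counts per kb (SD, n = 3), and TMSB10, at 90935 ± 13917, were the highest and did not differ beyond their spread. ACTG1 (57924 ± 1824) and TMSB4X (54809.7 ± 7681) followed, again within each other's spread, and then CFL1 (40761 ± 2569.6), PFN1 (40563 ± 4089) and MYL6 (32707 ± 4459). The filament bundlers FSCN1 (565 ± 22.0) and FLNC (1068 ± 88.0) were far lower, and LCP1 (41.0 ± 5.27) and CNN1 (0.218 ± 0.378) were at the bottom of the order.

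**Figure D4:**
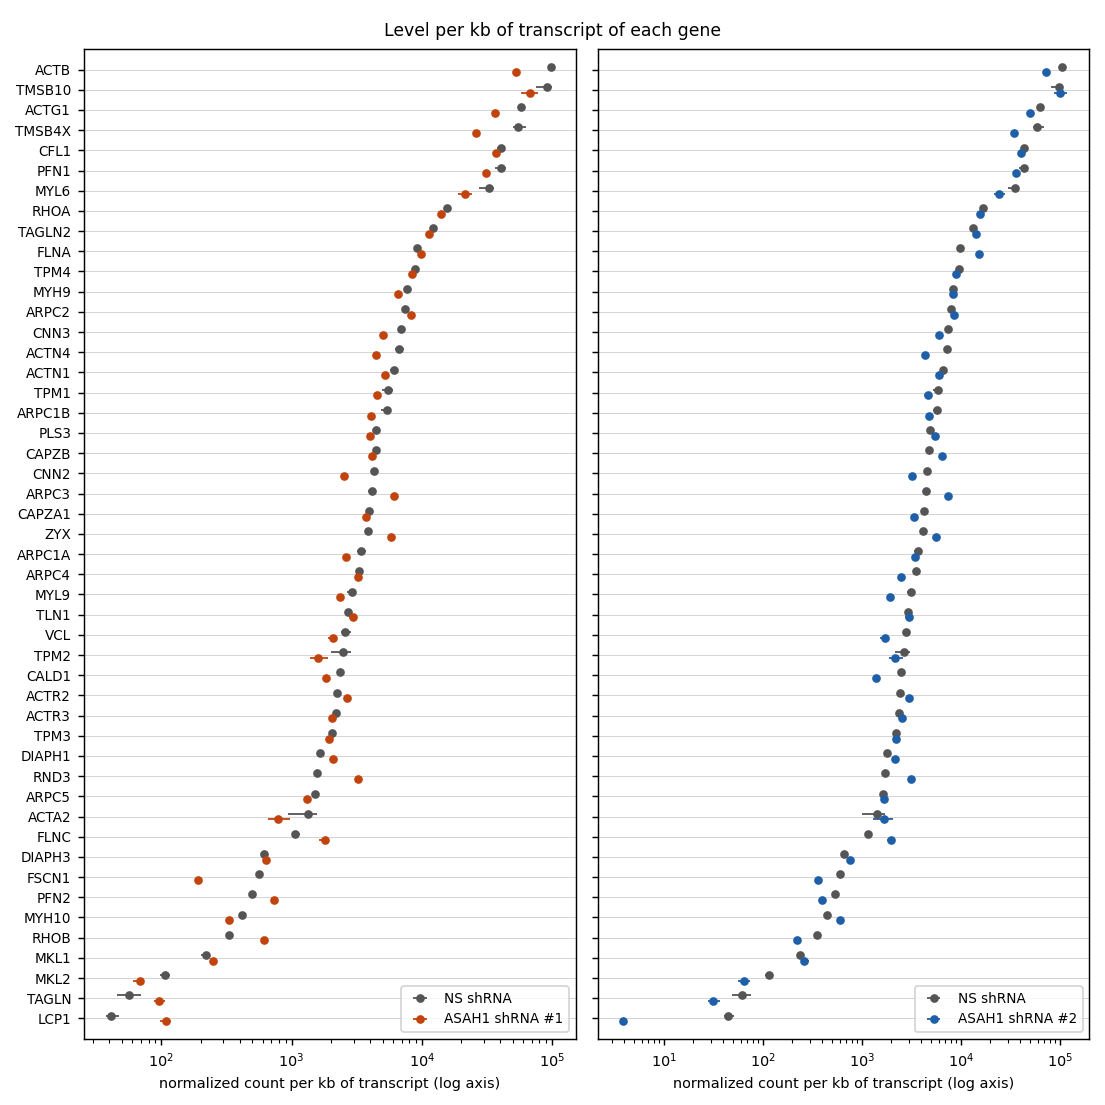
Normalized count per kb of the canonical transcript (x axis, log scale) of 48 genes in order of their level with NS shRNA, for NS shRNA (grey) with ASAH1 shRNA #1 (left, orange) and with ASAH1 shRNA #2 (right, blue). Points are means and bars run from the lowest to the highest of 3 libraries. ACTB is highest with NS shRNA at 97650.5 per kb and LCP1 lowest of those drawn at 41.0 per kb; CNN1 is left out.

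The other genes of the pathway, 71 in 5 lists of which 68 were tested, gave 21 calls in each direction with shRNA #1 (30.9% each, beside 32.8% of all genes higher and 33.3% lower). With shRNA #2, 31 rose (45.6%, beside 33.5%) and 21 fell (30.9%, beside 33.4%). Their median log2 fold changes were 0.00055 and 0.11. Of 17 further nucleation and elongation factors, 6 rose and 4 fell with shRNA #1 and 8 rose and 5 fell with shRNA #2. ARPC5L, an alternative ARP2/3 subunit, rose with both (0.65, SE 0.075, limma adjusted p = 4.84e-05, with shRNA #1 and 0.74, SE 0.086, limma adjusted p = 2.41e-05, with shRNA #2), and EVL, an Ena/VASP protein that speeds filament growth, fell with both (-0.92, SE 0.093, limma adjusted p = 2.08e-05, with shRNA #1 and -0.32, SE 0.088, limma adjusted p = 0.00789, with shRNA #2). Of 14 further turnover and capping factors, 2 rose and 5 fell with shRNA #1 and 5 rose and 5 fell with shRNA #2. The largest fall was that of GSN, gelsolin, which severs and caps filaments: it went from 17529, 17961 and 16376 to 6596, 6975 and 7239 with shRNA #1 (-1.32, SE 0.053, limma adjusted p = 6.93e-08). GSN went from 18915, 19497 and 17657 to 8997, 8126 and 9538 with shRNA #2 (-1.07, SE 0.067, limma adjusted p = 3.56e-07), with no overlap. CORO1B, a coronin of branched networks, fell as well (-0.29, SE 0.056, limma adjusted p = 0.00134, with shRNA #1 and -0.88, SE 0.063, limma adjusted p = 8.91e-07, with shRNA #2).

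Of 14 further myosin and small GTPase pathway genes, 13 were tested, 2 rose and 3 fell with shRNA #1, and 4 rose and 5 fell with shRNA #2. ARHGEF2, the exchange factor GEF-H1 that activates RhoA, rose from 2688, 2607 and 2635 to 7324, 7588 and 7419.8 with shRNA #1 (1.49, SE 0.043, limma adjusted p = 1.07e-08). ARHGEF2 went from 2900.05, 2829 and 2841 to 5127, 5014 and 4936 with shRNA #2 (0.81, SE 0.051, limma adjusted p = 3.58e-07), and ROCK1, a RhoA-dependent kinase, also rose (0.38, SE 0.078, limma adjusted p = 0.00180, with shRNA #1 and 0.59, SE 0.082, limma adjusted p = 9.10e-05, with shRNA #2). Of 17 further linkers and crosslinkers, 7 rose and 6 fell with shRNA #1 and 9 rose and 5 fell with shRNA #2. Of these, TNS3, tensin 3 of adhesions, fell with both hairpins (-1.25, SE 0.058, limma adjusted p = 1.57e-07, with shRNA #1 and -0.50, SE 0.063, limma adjusted p = 4.96e-05, with shRNA #2). Among SRF and 8 other genes listed as its targets, 7 were tested, of which 4 rose and 3 fell with shRNA #1 and 5 rose and 1 fell with shRNA #2. SRF itself rose (0.47, SE 0.054, limma adjusted p = 5.05e-05, with shRNA #1 and 0.71, SE 0.058, limma adjusted p = 2.04e-06, with shRNA #2), and so did FHL2 (1.12, SE 0.069, limma adjusted p = 8.83e-07, with shRNA #1 and 1.26, SE 0.075, limma adjusted p = 2.66e-07, with shRNA #2) and SRFBP1 (1.14, SE 0.083, limma adjusted p = 2.60e-06, with shRNA #1 and 1.12, SE 0.087, limma adjusted p = 1.58e-06, with shRNA #2), both partners of SRF.

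In the direct comparison of the 2 hairpins (edgeR, quasi-likelihood), 31 of the 49 genes differed, 19 higher and 12 lower with shRNA #2, where 31.1% and 32.1% of 14714 genes were (63.3% in either direction). At least 1.5-fold higher were 3 (11.1% of all genes) and at least 1.5-fold lower 5 (16.4%). The median log2 difference over the 49 genes was 0.065, against -0.0052 over all genes. All 3 actins were higher with shRNA #2, including ACTA2 by 0.98 (SE 0.21, edgeR adjusted p = 0.00182), and so was FSCN1 by 0.81 (SE 0.065, edgeR adjusted p = 8.31e-07). The 5 lower ones were LCP1, TAGLN, RHOB, CNN1 and PFN2, and the 3 higher ones ACTA2, FSCN1 and MYH10. For ASAH1 itself the difference was -0.88 (SE 0.051, edgeR adjusted p = 6.82e-08), lower with shRNA #2.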

How the data were processed

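RNA from 9 MDA-MB-231 libraries was analysed, 3 each with NS shRNA, ASAH1 shRNA #1 and ASAH1 shRNA #2, grouped by the sample labels. Per the labels and the study's methods, the authors used Trimmomatic 0.36 for trimming and STAR 2.7.1a for alignment to hg38, counted reads on UCSC genes on the reverse strand with HTSeq and ran DESeq2 1.28 separately for each hairpin with the NS shRNA libraries. Another methods paragraph names Bowtie2, RSEM, TMM and edgeR. The authors deposited, for 26485 genes in each table, a normalized signal per library (a read count divided by a size factor) with its mean, and their own log2 fold change, standard error, Wald statistic and p-values, which were not used. 28 symbols altered in one table were taken from the other, and 0 per-sample columns were left unmatched. Each signal came out as a whole number of reads (100% within 0.01), so reads were recovered, those of NS shRNA from the shRNA #1 table.

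Each hairpin was compared with NS shRNA by limma 3.58.1 (R 4.3.3) (trended prior, two-sided) after adding 1 to each value and taking log2, keeping genes whose mean over the 6 libraries of a table reached 10, with Benjamini-Hochberg adjustment over all of them at 0.05. The log2 scale understates changes of low genes. The hairpins were compared by edgeR 4.0.16 (quasi-likelihood, TMM, 9 libraries). The SE given with an edgeR difference is its absolute log2 value divided by the square root of the F statistic. Alternatives tried included adding 0.1 or 5, dropping the filter, raising it to 50, upper quartile and same-total rescaling, edgeR and DESeq2 1.42.0 on the recovered reads, a replicate block and each library left out. On the recovered reads edgeR called 9537 genes with shRNA #1 and 9585 with shRNA #2. The fits were also run on simulated data with 200 changed genes per hairpin. That is far fewer than were called here, so the run does not show how the fits perform on these data.

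Members and lists were chosen with earlier results of these data known. Named with full values were the actins and, in each role, up to 4 genes called in both comparisons, in either direction, whose mean reached 100, taken by the size of their average log2 fold change. SRF and 2 genes per other list were named likewise among those called in the same direction. A gene picked by this last rule is not reported here. LCP1 and FLNA were added after their values were seen. Windows of 76 bases were matched to GENCODE v44 transcripts on both strands, and promoter windows came from RefSeq (GRCh38.p14). Depth limits precision only for CNN1, TAGLN and LCP1, whose reads were few.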

Additional observations from a re-analysis of the deposited data

Results flagged for a closer look

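For 6 of the 48 members tested with both hairpins, the hairpins were called in opposite directions against NS shRNA, and the difference between the hairpins itself passed edgeR's test over all genes, with 3 libraries a group. Of the 14074 genes tested in both comparisons and between the hairpins, 7.97% were called in opposite directions against NS shRNA. As shRNA #2 minus shRNA #1 on the log2 scale, the difference was -4.90 for LCP1 (edgeR adjusted p = 8.76e-10), -1.70 for TAGLN (edgeR adjusted p = 3.27e-06), -1.58 for RHOB (edgeR adjusted p = 1.18e-09) and -0.98 for PFN2 (edgeR adjusted p = 5.11e-08), all lower with shRNA #2. It was 0.75 for MYH10 (edgeR adjusted p = 6.5e-07) and 0.33 for PLS3 (edgeR adjusted p = 4.38e-05), both higher with shRNA #2. For LCP1, TAGLN, RHOB, PFN2, MYH10 and PLS3 no library of a hairpin overlapped with its controls. Both calls of PLS3 against NS shRNA were lost under some alternatives, and TAGLN shares 82.3% of its windows with other transcripts on either strand. Groups of 3 libraries are too small to test single libraries as outliers.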

How the results depend on the processing

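The counts of called members stayed within 1.5 times under every alternative run. With shRNA #1, 11 to 13 members were higher and 23 to 26 lower, and leaving out single libraries gave 11 to 14 and 23 to 27. With shRNA #2 the counts ran from 9 to 12 higher and 21 to 28 lower (10 to 12 and 21 to 24 without single libraries). Upper quartile and same-total rescaling moved the median of all genes to -0.077 and -0.12 with shRNA #2 and gave 10 higher with 27 lower and 9 higher with 28 lower. Between the hairpins 18 to 20 were higher and 12 lower (18 to 19 and 12 to 14). Under all alternatives in which the gene was tested, 33 of 39 calls with shRNA #1 were kept (those of ACTR3, ARPC2, MKL1, PLS3, RHOA and TMSB10 were lost in at least 1), as were 30 of 32 with shRNA #2 (DIAPH3 and PLS3 lost) and 28 of 31 between the hairpins (ARPC3, DIAPH3 and TMSB10 lost), and 0 called values reversed. CNN1 counts among the 33, although its call is fixed by the filter and it was not tested with the minimum mean raised to 50. Not called, but past the test with 1 library left out, were TAGLN2, FLNA, TLN1 and CFL1 with shRNA #1 (NS replicate 3, and for TLN1 and CFL1 also shRNA #1 replicate 3) and TPM2, CFL1 and ARPC1A (NS replicate 3), TPM2 and RHOA (shRNA #2 replicate 3) and TAGLN2 (NS replicate 1) with shRNA #2. With shRNA #2, TPM2, TPM4, ACTN1, CFL1, ARPC1A and RHOA also passed under both rescalings, and TPM2 by DESeq2.

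The replicate numbers were not taken to pair the libraries: deviations of same-numbered libraries from their group means correlated at -0.19, -0.13 and -0.27 between NS shRNA and shRNA #1, at -0.098, -0.18 and -0.32 between NS shRNA and shRNA #2, and at 0.055, 0.096 and 0.20 between the hairpins, where each library correlated best with its own number, a hint from the data and not the design. For shRNA #1 replicate 1 the margin was slight, since it correlated at 0.053 with shRNA #2 replicate 2. With a replicate block, 11 members were higher and 23 lower with shRNA #1, 10 and 21 with shRNA #2, and 18 and 12 between the hairpins. The calls of PLS3, ARPC2, ACTR3, RHOA and MKL1 with shRNA #1, PLS3 with shRNA #2 and ARPC3 between the hairpins did not pass with it.

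Values that were not called changed sign as follows, and the cause was not tested. With shRNA #2, upper quartile rescaling gave -0.068 for MYH9, -0.089 for TPM3, -0.053 for TLN1, -0.051 for TMSB10, -0.0043 for ARPC2 and -0.035 for ARPC5. Same-total rescaling gave -0.11 for MYH9, -0.13 for TPM3, -0.017 for TAGLN2, -0.097 for TLN1, -0.095 for TMSB10, -0.049 for ARPC2, -0.079 for ARPC5 and -0.019 for ACTR3. Without single libraries, the values ran from -0.070 to 0.0051 for ARPC4 with shRNA #1 and, with shRNA #2, from -0.017 to 0.052 for MYH9, -0.0064 to 0.0055 for TPM3, -0.013 to 0.098 for TLN1, -0.0026 to 0.41 for ACTA2 and -0.097 to 0.13 for TMSB10. Between the hairpins they ran from -0.049 to 0.17 for MYL6, -0.12 to 0.019 for TPM1, -0.031 to 0.11 for FLNC, -0.026 to 0.037 for CFL1 and -0.12 to 0.0049 for MKL1, and CFL1 was 0.00054 by DESeq2 and 0.00072 without a filter. For members other than CNN1, TAGLN and LCP1 read depth was not limiting, since each held at least 423 reads in every library.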

Other observations

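The members differed by library within the groups in a way the labels do not describe. For 19 of the 48 members tested in both comparisons (39.6%), replicate 3 was the lowest of the NS shRNA libraries and the highest library of both ASAH1 hairpins, beside 19.2% of the 14074 genes tested in both comparisons and between the hairpins. These 19 include both cytoplasmic actins, ACTA2, MYL6, MYL9, TPM1, TPM2, PFN1, TMSB10, TMSB4X and 5 ARP2/3 subunits (ARPC1A, ARPC1B, ARPC3, ARPC4 and ARPC5). TMSB10 shows the spread: its normalized count was 45903, 45339.9 and 34520.03 with NS shRNA, 26803, 30077 and 36322 with shRNA #1 and, in the other table, 44189.9, 40718 and 54673 with shRNA #2. For 11 members, MYH10, CALD1, ACTN1, ACTN4, FLNA, FLNC, VCL, TLN1, ACTR2, CAPZA1 and MKL2, the order was the opposite, with replicate 3 highest with NS shRNA and lowest with both hairpins. This share, 22.9%, was near the 22.3% of all genes and does not set the members apart. FLNC, at 9448, 9199 and 10703 with NS shRNA and 17202, 17311 and 14849 with shRNA #1, is an example. This pattern was noticed in the data and was not tested, and the labels do not say that replicate numbers tie libraries of different groups together.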
